A study of Mus musculus with 20 samples.

Results

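The response of wild-type mouse cortical neurons to combined oxygen and glucose deprivation was described across all genes of 1 deposited expression table. The comparison took every library labelled wild type under deprivation (OGD_WT) against every library labelled wild type in normoxia (N_WT), which gave 10 of the 20 libraries of the series and 14235 genes. No gene was chosen for its response in forming this comparison.

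Cortices were taken at embryonic day 15 (E15), and the cells were grown for 7 days in Neurobasal with B27, so both groups were primary cultures and not a cell line. The 5 N_WT cultures then spent 12 h in a fresh medium with 25 mM glucose and 0.2 mM pyruvate at 37 °C and 5% CO2. The 5 OGD_WT cultures spent 12 h in the same base medium, for which the protocol names no added glucose or pyruvate, in a chamber at 1% O2, 5% CO2 and 37 °C. Oxygen, glucose and pyruvate therefore changed together and their effects cannot be told apart. The strain label, C57BL/6N-Cdr1asem1Nikr, names an edited allele of the circular RNA locus Cdr1as and is given for wild-type and knockout (KO) cultures alike. The genotype label separates them: Cdr1as ranged from 5.69 to 6.96 log2 CPM in the 10 wild-type libraries and from -0.79 to 0.96 in the 10 KO libraries. An OGD and an N library with the same number carry the same culture name and batch label. Cultures 2 and 4 were batch 3.3, culture 5 batch 3.1, culture 3 batch 3.2 and culture 1 batch 1. Total RNA was sequenced, so noncoding and mitochondrial ribosomal RNAs are part of the measurement.

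Oxygen deprivation is read in cells chiefly through hypoxia-inducible factor (HIF). With oxygen present, prolyl hydroxylases of the Egln family mark its alpha subunit for destruction. Without it the subunit pairs with Arnt, binds hypoxia response elements and switches on genes for glucose uptake, glycolysis, vessel growth and mitophagy. Lack of glucose and amino acids, misfolded proteins and other stresses act through the integrated stress response, in which the transcription factor ATF4 is made more efficiently while most translation slows. Neurons rely on oxidative metabolism to run ion pumps and synapses. Immediate early genes, such as those of the Fos, Jun and Egr families, are transcribed within minutes of depolarisation or stress.

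Values are log2 CPM, the log2 of a gene's reads relative to its library's size on the authors' scale, where a difference of 1 is a 2-fold change. In each gene and group the deposited table holds the lowest and the highest value drawn inwards, and this step was undone before any test. Whole reads could then be recovered, from 7071603 to 13170265 per N_WT library and from 9216541 to 16657766 per OGD_WT library. A value of -1.27 stands for 0 reads. A gene was called where limma, fitted over all 14235 genes with 5 libraries a group, gave an adjusted p (Benjamini-Hochberg, two-sided) below 0.05.

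Within each group the 5 libraries did not behave as equals. Over genes with at least 1000 reads, replicate 3 was the lowest or highest of its group in 1.9% of genes in N_WT and 0.8% in OGD_WT, where 40% would be each library's share if none had a favoured place. For replicate 1 these shares were 11.1% and 5.7%, and for replicates 2, 4 and 5 they lay between 61.3% and 67.4%. The best weighted sum of the other 4 libraries for N_WT replicate 3 gave weights of 0.12, 0.32, 0.29 and 0.26 to replicates 1, 2, 4 and 5, and the scatter around it was 0.54 of the noise that independent read counting would give. For OGD_WT replicate 3 the scatter was 0.57, against 1.53 to 2.9 for the other OGD_WT libraries. Replicate 3 thus held little that was its own, and p-values from 5 libraries a group may be too small. Why the libraries lie this way was not tested. Counts for gene lists are therefore given over all 5 cultures and again over cultures 2, 4 and 5, a choice made after seeing the data. The smaller fit gave genes of like level the same variance. Its calls thus follow the size of the mean difference and not the spread of a gene between cultures. A gene can stay called there though 1 culture went the other way, as for Gpi1 below. A single gene named below whose call was lost over cultures 2, 4 and 5, or that went against its call in a culture, is described as such.

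**Figure D1:**
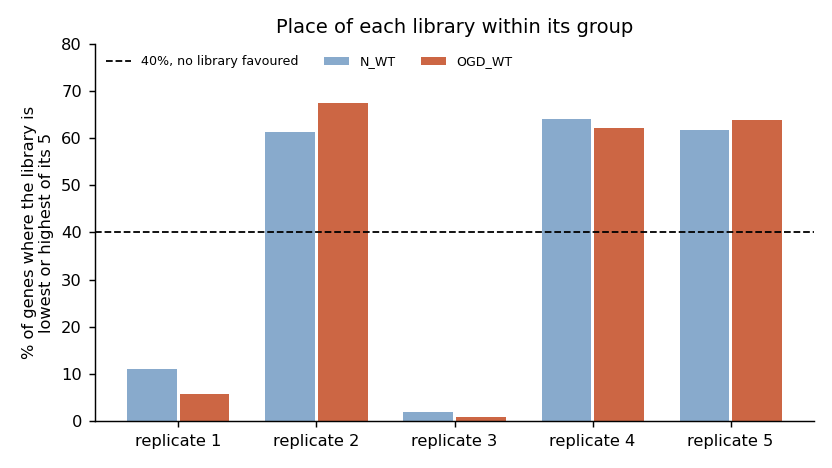
Share of genes (vertical axis, %) for which each replicate was the lowest or the highest of its 5 libraries, over genes with at least 1000 reads, in N_WT and OGD_WT. Replicate 3 stands at 1.9% and 0.8% and replicate 1 at 11.1% and 5.7%, while replicates 2, 4 and 5 lie above the dashed line at 40%.

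Deprivation changed the level of a large share of the genes. Of 14235 genes 6313 (44.3%) were called, 3069 higher (21.6%) and 3244 lower (22.8%) in OGD_WT. A change of at least 2-fold was called for 678 genes higher (4.76%) and 678 lower (4.76%). The largest changes were rises: 90 genes rose and 20 fell at least 4-fold, and 21 rose and 2 fell at least 8-fold. Over cultures 2, 4 and 5, 2411 genes (16.9%) were called, 1140 higher (8.01%) and 1271 lower (8.93%). Of these, 2383 were also called over all cultures, each in the same direction. The libraries of cultures 2, 4 and 5 are part of both fits, so this overlap is no independent check. The groups did not overlap for 3835 genes (26.9%). The first principal component, with 59.9% of the variance, separated the 5 OGD_WT libraries (20.3 to 46.3) from the 5 N_WT libraries (-38.8 to -27.6). The second, with 13.3%, set the libraries of culture 5 furthest apart, at 35.0 in OGD_WT and -22.1 in N_WT. OGD_WT replicate 4, at -22.0, lay at the same end as N_WT replicate 5.

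**Figure D2:**
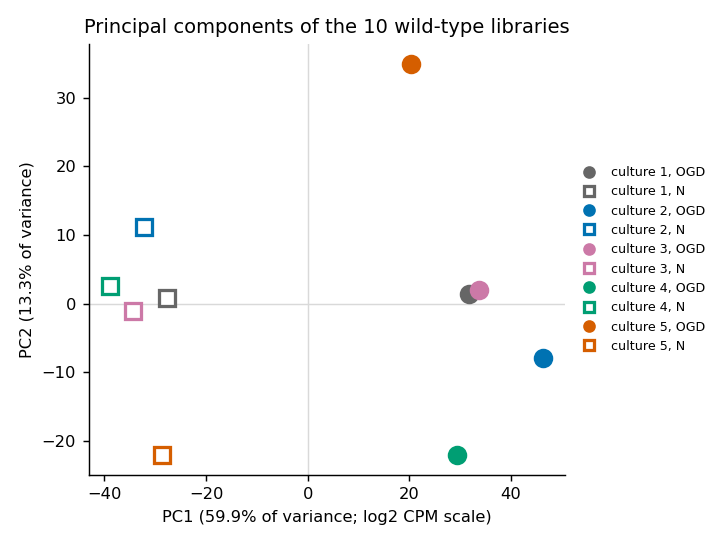
First 2 principal components of the 10 wild-type libraries from log2 CPM, coloured by culture, with filled circles for OGD and open squares for N. All OGD libraries lie at 20.3 or above on the first component and all N libraries at -27.6 or below, and the 2 libraries of culture 5 lie at 35.0 and -22.1 on the second.

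The split into rises and falls depends on how the libraries are scaled. On the scale of total recovered reads (limma voom), the median gene stood at -0.31 and not at -0.03, and 1619 genes were called higher and 5774 lower. The share of reads taken by mitochondrial ribosomal RNA differed between the groups. Together mt-Rnr1 and mt-Rnr2 took 13.6%, 11.1%, 13.2%, 12.0% and 14.9% of the recovered reads in N_WT replicates 1 to 5 and 22.3%, 15.4%, 23.4%, 25.7% and 24.5% in OGD_WT, a difference of 9.3 percentage points. The groups did not overlap, and the two-sided exact permutation p was 0.00794, the smallest that 5 against 5 allows. Most of the sum was mt-Rnr2, while the share of mt-Rnr1 alone overlapped, at 0.845% to 1.21% in N_WT and 1.01% to 1.64% in OGD_WT, and was lower under deprivation in culture 4 (1.15% and 1.01%). On the authors' scale mt-Rnr2 was called higher (1.07 ± 0.24) but not over cultures 2, 4 and 5. The mitochondrial messenger RNAs took 2.06% to 2.43% in N_WT and 1.97% to 2.85% in OGD_WT, which overlapped. Differences below are on the authors' scale, and a list whose median changes sign on the total-read scale is named as such.

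Markers of the labelled cell type were abundant, and markers of other cell types were present. All 12 neuron markers were measured, with a summed level of 6980 to 8510 CPM in N_WT and 4600 to 7270 in OGD_WT; 5 fell and none rose, with a median log2 difference of -0.4. Of 12 astrocyte markers 10 were measured, and their sum was 1260 to 1570 CPM in N_WT and 2040 to 2520 in OGD_WT; 7 rose and 1 fell (median 0.81). All 12 neural progenitor markers were measured, and 7 rose and 1 fell (median 0.66), with sums of 793 to 1210 and 1170 to 1980 CPM. Of 12 microglial markers 1 was in the table, and it was not called. Of 12 endothelial markers 1 was in the table, Kdr, a receptor for Vegfa, which was called higher (0.6 log2 units; -0.39 to 0.65 in N_WT and 0.39 to 1.1 in OGD_WT, with overlap) but not over cultures 2, 4 and 5, and was lower by 0.05 in culture 4. Of 12 mural, meningeal or fibroblast markers 5 were measured, of which 3 rose and 1 fell (2 and 0 over cultures 2, 4 and 5), with sums of 14.7 to 20.5 CPM in N_WT and 19.0 to 30.7 in OGD_WT. Of 12 oligodendrocyte lineage markers 9 were measured, of which 1 rose and 3 fell (11.1% and 33.3%). Over cultures 2, 4 and 5 these counts were 0 and 1. Their sums were 293 to 367 CPM in N_WT and 328 to 494 in OGD_WT. Over cultures 2, 4 and 5 the neuron markers gave 0 rises and 1 fall, the astrocyte markers 6 and 0 and the progenitor markers 4 and 0. In bulk RNA fewer cells of a type and less RNA per cell cannot be told apart, and the part of these shifts in the differences below was not tested.

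The glucose transporter Slc2a1 had the largest rise of the named genes, and most genes of its list rose with it. Of 24 measured members of the glycolysis list 15 rose and 2 fell (62.5% and 8.33%), with a median log2 difference of 1.11; over cultures 2, 4 and 5 the counts were 14 and 2. Here and for every list below, the shares of all genes to set beside these are 21.6% higher and 22.8% lower, and over cultures 2, 4 and 5 8.01% and 8.93%. Slc2a1, the glucose transporter GLUT1, stood at 2.51, 2.08, 2.48, 2.45 and 2.83 log2 CPM in N_WT replicates 1 to 5 and at 6.37, 7.06, 6.5, 6.69 and 5.52 in OGD_WT. Every OGD_WT library lay far above every N_WT library, with replicate 5 the lowest of them, and the log2 difference was 3.95 ± 0.21 (SE; limma adjusted p = 1.5e-11). Hk2, the hexokinase that traps glucose in the cell, went from 2.04, 2.34, 2.26, 1.96 and 2.66 to 6.12, 6.46, 6.03, 6.03 and 5.22, a difference of 3.72 ± 0.19. Slc16a3, the lactate exporter MCT4, had 0 to 5 reads in each N_WT library and 20 to 70 in each OGD_WT library. Pfkl, the liver-type phosphofructokinase, rose by 2.07 ± 0.19 (4.77 to 5.4 in N_WT, 6.38 to 7.6 in OGD_WT). The members that fell were Eno2, the neuronal enolase (-1.03 ± 0.16), and Slc16a7, the monocarboxylate carrier MCT2 with which neurons take up lactate (-1.56 ± 0.16); these were named after their values were seen. Both are isoforms that neurons are known for.

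Upstream sequence was looked at for genes of this group because they moved together. RefSeq promoters on GRCm38.p6, which is the assembly called mm10 in the submitters' processing notes, were found for 10147 of the 14235 genes, and the 250 bases before each start were searched on both strands. The core ACGTG of the hypoxia response element was present for 11 of 22 glycolysis genes with a promoter, and for 9 of 13 genes of the list on hypoxic mitochondria (69.2%), against 25.6% of all measured genes with a promoter. Both lists hold known HIF targets, so these shares do not stand apart from how the lists were made. The second also holds genes of other compartments, such as the collagen hydroxylase P4ha1. Among genes that rose at least 2-fold the share with ACGTG was 29.9%, and among those that fell at least 2-fold 25.1%. The other core, GCGTG, was present for 51.3% of all measured genes with a promoter. With either core counted, the share was 62.8% among genes that rose at least 2-fold and also 62.8% among all measured genes. The letters are common, and a match shows no binding. CACGTG, which is also the letters of an E-box, holds the first core on both strands and was counted once per promoter. The windows below show 4 of the risers with the core in capitals, 5′ to 3′ on the strand of the gene; CACGT is the same core read on the other strand.
Slc2a1 (chr4:119108684-119108738, + strand): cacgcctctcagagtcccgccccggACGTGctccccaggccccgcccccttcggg
Hk2 (chr6:82774477-82774531, - strand): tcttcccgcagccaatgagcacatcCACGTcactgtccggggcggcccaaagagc
Ldha (chr7:46845732-46845786, + strand): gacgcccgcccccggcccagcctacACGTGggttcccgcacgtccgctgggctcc
Bnip3 (chr7:138909584-138909638, - strand): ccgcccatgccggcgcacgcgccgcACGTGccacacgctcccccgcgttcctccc
The capitals of these windows begin 36, 52, 47 and 107 bases before the start of Slc2a1, Hk2, Ldha and Bnip3. All 4 genes were called higher over the 5 cultures, though Ldha and Bnip3 were not higher in culture 5.

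In culture 5 many glycolytic genes and members of the list on hypoxic mitochondria did not rise. Gpi1, which converts glucose 6-phosphate to fructose 6-phosphate, stood at 6.99, 5.81, 6.98, 6.21 and 8.28 in N_WT replicates 1 to 5 and at 9.13, 10.13, 9.16, 9.72 and 7.67 in OGD_WT. Its difference was 2.31 ± 0.38 over all cultures but -0.61 in culture 5, whose N_WT library was the highest of its group and whose OGD_WT library was the lowest. Bnip3, a mitophagy receptor of the mitochondrial outer membrane, showed the same pattern, at 4.05, 3.75, 4.15, 3.84 and 5.14 in N_WT and 6.54, 7.22, 6.44, 6.75 and 4.59 in OGD_WT. Ldha, which makes lactate from pyruvate, differed by 1.82 to 2.86 in cultures 1 to 4 and by -0.01 in culture 5. The median over the glycolysis list was 1.04, 2.09, 1.09, 1.55 and -0.03 in cultures 1 to 5, and over the list on hypoxic mitochondria 0.87, 1.76, 0.86, 1.28 and 0.11. Of the 351 genes that were at least 2-fold higher under deprivation in each of cultures 1 to 4, 34 were lower in culture 5, among them Tpi1, Pgam1, Pfkfb3, Pdk1, Gys1, Nampt and Egln1; these were named after their values were seen.

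Other branches of the response were present in culture 5. The list medians there were 0.92 for the integrated stress response, 1.14 for immediate early factors, 1.03 for the clock and -1.28 for GABA and glycine receptors. Culture 5 was the wild-type culture of batch 3.1, and the batch and the culture cannot be told apart within the genotype. The 2 KO cultures of the same batch, 2 and 4, had glycolysis medians of 0.39 and 0.77, below the 0.91, 1.16 and 1.34 of KO cultures 1, 3 and 5. Across both genotypes the highest median (2.09) was in batch 3.3. Without culture 5 the fit over the other 4 wild-type cultures called 6993 genes.

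**Figure D3:**
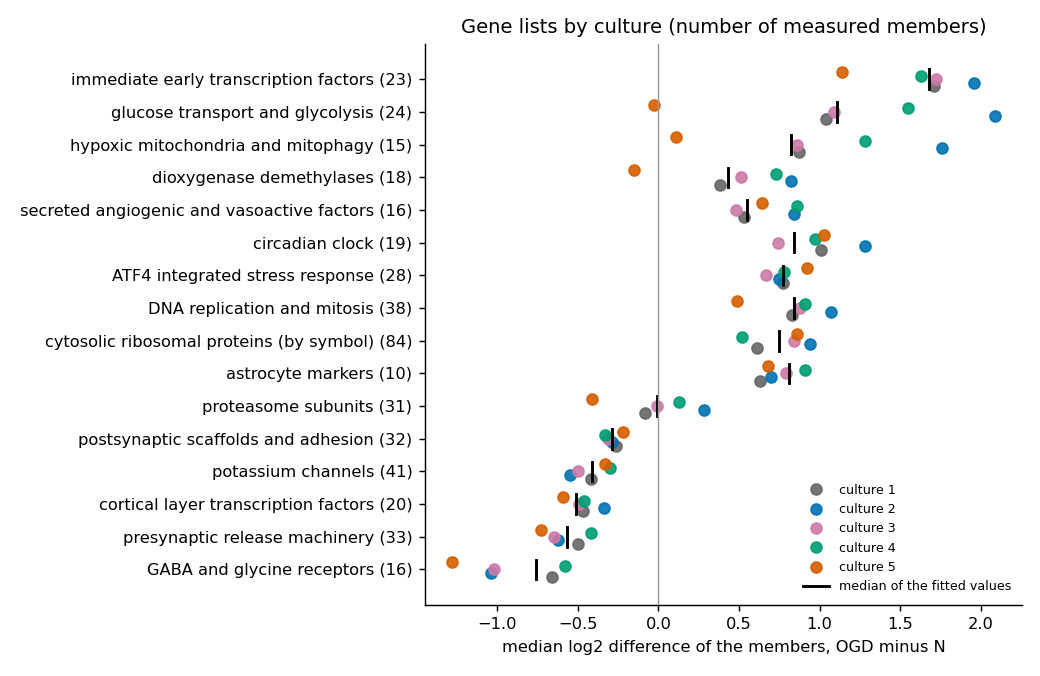
Median log2 difference, OGD minus N, of the measured members of 16 gene lists (rows, number of members in brackets) in each wild-type culture (coloured points), with the median of the fitted values as a black bar. Culture 5 lies at -0.03 for glycolysis and 0.11 for hypoxic mitochondria but at 0.92 for the integrated stress response and -1.28 for GABA and glycine receptors.

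The oxygen-sensing genes themselves moved unevenly. Of 11 measured, 5 rose and 1 fell (45.5% and 9.09%; median 0.34; 2 and 1 over cultures 2, 4 and 5). Egln3, a prolyl hydroxylase that is itself a HIF target, stood at 1.77, 1.34, 1.64, 1.69 and 2.63 in N_WT and 4.73, 4.85, 4.69, 4.58 and 3.59 in OGD_WT. The groups did not overlap, and the difference was 2.68 ± 0.23. Egln1 rose by 1.6 ± 0.28 but was lower by 0.39 in culture 5. The messenger of the HIF subunit Hif1a stood at 7.46 to 7.55 in N_WT and 7.65 to 8.28 in OGD_WT, a difference of 0.36 ± 0.14 that was not called over cultures 2, 4 and 5. Arnt, its partner, rose by 0.69 ± 0.15 and was likewise not called there, and Hif3a, which yields isoforms that curb HIF, fell by 1.07 on the log2 scale (SE 0.28). Of 18 dioxygenases that demethylate histones or DNA, 8 rose and 1 fell (44.4% and 5.56%; 5 and 0 over cultures 2, 4 and 5). Kdm3a, a histone H3 lysine demethylase, rose by 2.46 ± 0.24 (4.82 to 6.29 in N_WT, 7.12 to 8.57 in OGD_WT), and Tet2 by 1.31 ± 0.24, though Tet2 was 0.24 log2 units lower in culture 5.

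Among secreted factors that act on vessels some rose and some fell. Of 16 measured 7 rose and 4 fell (43.8% and 25.0%; median 0.55), the falls being near the share of all genes; over cultures 2, 4 and 5 the counts were 7 and 1. Vegfa, the main vascular growth factor, stood at 5.84, 4.92, 5.55, 5.16 and 6.34 in N_WT and 8.81, 9.73, 8.78, 9.28 and 7.66 in OGD_WT, a difference of 3.29 ± 0.29 with no overlap. Ccn1, a matricellular protein of vessel growth, rose by 3.79 ± 0.22, with 2.03 to 2.96 in N_WT and 5.61 to 6.96 in OGD_WT. Adm, the vasodilator adrenomedullin, had 0, 1, 1, 0 and 3 reads in the N_WT libraries and 88, 60, 58, 32 and 50 in OGD_WT. Ccn3 fell by 1.32 on the log2 scale (SE 0.19).

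The list on hypoxic mitochondria and mitophagy had 9 of 15 measured members called higher and none lower (7 and 0 over cultures 2, 4 and 5), with a median of 0.82. Its name is narrower than its content. The members with the largest rises, P4ha1 and P4ha2, modify collagen and are not mitochondrial. P4ha1, a collagen prolyl hydroxylase subunit, went from 4.36, 3.72, 4.12, 3.83 and 4.52 to 7.06, 7.81, 7.12, 7.28 and 6.63, a difference of 3.07 ± 0.19 that was present in culture 5 too. P4ha2 rose by 2.45 ± 0.31, Fam162a, a HIF target of the mitochondrial membrane, by 2.26 ± 0.3, and Ero1a, an oxidase of the endoplasmic reticulum, by 1.59 ± 0.27. In culture 5 these 3 differed by 0.13, -0.15 and -0.21, and the groups overlapped for Fam162a and Ero1a. Pdk1, a kinase that inhibits the pyruvate dehydrogenase complex, rose by 1.42 ± 0.32 and Pdk3 by 0.94 ± 0.22. Both were lower under deprivation in culture 5. Over cultures 2, 4 and 5 Pdk3 was not called. Dlat, a subunit of the pyruvate dehydrogenase complex that Pdk1 inhibits, fell by 0.7 on the log2 scale (SE 0.18), a call that was lost over cultures 2, 4 and 5. Of 41 nuclear-encoded subunits of the respiratory chain none rose and 4 fell (0 and 1 over cultures 2, 4 and 5), and their median of 0.03 became -0.25 on the total-read scale. The 31 proteasome subunits gave no call, also over cultures 2, 4 and 5, with a median of -0.01.

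The integrated stress response moved by similar amounts in all cultures. Of 28 measured members 21 rose and 1 fell (75.0% and 3.57%), and the medians of the 5 cultures lay between 0.67 and 0.92; over cultures 2, 4 and 5, 14 rose and none fell. Atf3, a stress-induced transcription factor, stood at 0.4, 0.45, 0.69, 0.79 and 0.27 in N_WT and 3.26, 3.51, 3.45, 3.73 and 3.45 in OGD_WT, a difference of 2.96 ± 0.17. Slc7a11, the cystine importer, went from 3.21, 3.58, 3.51, 3.52 and 3.2 to 4.89, 4.55, 5.24, 5.55 and 5.91, and Slc3a2, its heavy chain, rose by 1.05 ± 0.15. Ddit3, the death-linked factor CHOP, rose by 1.09 ± 0.15, Trib3 by 1.05 ± 0.24 (0.1 in culture 3, 2.05 in culture 5) and Nupr1 by 2.2 ± 0.19. The member that fell was Slc7a3, a cationic amino acid carrier (-0.75 ± 0.19), named after its value was seen, and it was not called over cultures 2, 4 and 5.

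The composite element bound by ATF4 with a C/EBP factor, TGATGNAA, was present before the start of 8 of the 25 integrated stress response genes with a promoter (32.0%), against 2.23% of all measured genes with a promoter and 3.41% of those that rose at least 2-fold. The list was drawn from known ATF4 targets, so this share does not stand apart from how the list was made. The windows show 3 risers with the element in capitals. In Atf3 and Nupr1 it lies on the other strand and so appears as TTGCATCA. In Slc7a11 the capitals are followed by a further copy on the other strand.
Atf3 (chr1:191183411-191183468, - strand): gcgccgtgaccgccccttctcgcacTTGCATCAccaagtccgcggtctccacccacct
Nupr1 (chr7:126625548-126625605, - strand): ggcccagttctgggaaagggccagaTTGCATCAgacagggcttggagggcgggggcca
Slc7a11 (chr3:50443647-50443704, - strand): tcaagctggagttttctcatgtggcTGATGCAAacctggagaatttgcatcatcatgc
Their capitals begin 110, 110 and 66 bases before the start. Asns and Chac1 also hold the element, and neither was called (-0.06 and 0.44), both named after their values were seen.

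Other stress lists moved less. Of 22 heat shock genes 9 rose and 3 fell (40.9% and 13.6%; 5 and 2 over cultures 2, 4 and 5), and the median of 0.11 became -0.17 on the total-read scale. Hspa1a, an inducible HSP70, went from 3.24, 2.63, 2.91, 2.82 and 2.98 to 5.14, 5.12, 5.52, 5.99 and 5.76, and Hspa1b rose by 2.82 ± 0.18; the 2 genes are near-identical copies, so reads may be split between them. Of 31 NRF2 antioxidant and metallothionein genes 14 rose and 1 fell (45.2% and 3.23%; median 0.36; 6 and 0 over cultures 2, 4 and 5). Hmox1, which breaks down haem, stood at 2.96, 3.44, 2.98, 3.26 and 2.98 in N_WT and 5.02, 5.4, 5.35, 4.93 and 5.05 in OGD_WT, and Nfe2l2, which encodes NRF2, rose by 1.93 ± 0.19. Of 24 genes of the endoplasmic reticulum unfolded protein response 7 rose and 3 fell (29.2% and 12.5%), the rises being near the share of all genes, and over cultures 2, 4 and 5 the counts were 1 and 0; the median of 0.11 became -0.17 on the total-read scale. Ddit4, an inhibitor of mTOR signalling, rose by 1.79 ± 0.21 and Foxo3 by 1.37 ± 0.15.

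Death-related genes rose in part. Of 24 p53 targets and death receptors 15 rose and 3 fell (62.5% and 12.5%; median 0.53; 9 and 1 over cultures 2, 4 and 5). Fas, a death receptor, had 5, 2, 0, 6 and 1 reads in the N_WT libraries and 89, 95, 105, 87 and 45 in OGD_WT. Bbc3, which encodes the killer protein PUMA, rose by 1.26 ± 0.18 and Bcl2l11, which encodes BIM, by 1.28 ± 0.18. Bid (-0.83 ± 0.16) and Pmaip1, which encodes NOXA (-0.69 ± 0.15), fell, though neither was called over cultures 2, 4 and 5. Btg2, a p53 target, stood at 4.53, 5.55, 4.75, 5.72 and 2.08 in N_WT, where replicate 5 lay far below the others, and at 5.74 to 6.35 in OGD_WT; its difference was 0.19 in culture 2 and 4.08 in culture 5. Over all 16 measured BCL2 family genes 5 rose and 4 fell (31.2% and 25.0%, near the shares of all genes; 3 and 0 over cultures 2, 4 and 5), and the median of 0.06 became -0.2 on the total-read scale.

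Immediate early transcription factors had the highest median of all lists described here, 1.68, with 19 of 23 measured members higher and none lower (82.6% higher; 18 and 0 over cultures 2, 4 and 5). Fosb stood at 0.61, 0.52, 0.02, 1.51 and 1.09 in N_WT and 4.93, 4.31, 4.93, 4.69 and 4.3 in OGD_WT, a difference of 3.88 ± 0.22. Jun, its dimer partner in AP-1, was already abundant and went from 6.67, 6.28, 6.34, 6.47 and 6.41 to 9.22, 9.73, 9.3, 9.14 and 9.2, a difference of 2.89 ± 0.15 with culture 2 the highest. Egr1 (3.19 ± 0.17), the orphan receptor Nr4a1 (3.39 ± 0.17) and Klf4 (2.96 ± 0.18) rose without overlap. Arc, an effector of synaptic plasticity, rose by 2.7 ± 0.17, while Rgs4, a regulator of G protein signalling in the list of activity-regulated effectors, fell by 1.31 on the log2 scale (SE 0.21). In that list 11 of 21 rose and 2 fell (52.4% and 9.52%). Over cultures 2, 4 and 5 the counts were 6 and 2, the falls there being near the share of all genes. Feedback inhibitors of MAP kinases rose in 8 of 16 cases and fell in 3 (5 and 0 over cultures 2, 4 and 5); Dusp16 stood at 3.78 to 3.95 in N_WT and 5.99 to 6.56 in OGD_WT, a difference of 2.31 ± 0.14. Of 13 measured NF-kB and inflammatory genes 7 rose and none fell (6 and 0 over cultures 2, 4 and 5), with Tnfaip3, an NF-kB feedback inhibitor, higher by 2.57 ± 0.18 and Nfkbiz by 2.38 ± 0.21.

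Sites for Fos and Jun dimers and for CREB were searched in the same 250 bases. The AP-1 site TGANTCA, bound by Fos and Jun dimers, was present for 29 of 411 genes with a promoter that rose at least 2-fold (7.06%). For those that fell at least 2-fold it was 22 of 462 (4.76%), and for all measured genes 492 of 10147 (4.85%). The cyclic AMP response element TGACGTCA, bound by CREB, was present for 19 (4.62%), 7 (1.52%) and 328 (3.23%). Of the 15 largest rises 13 had a promoter, and 0 of them held either site. Among 18 immediate early factor genes with a promoter, 0 held the AP-1 site and 1 the cyclic AMP response element.

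**Figure D4:**
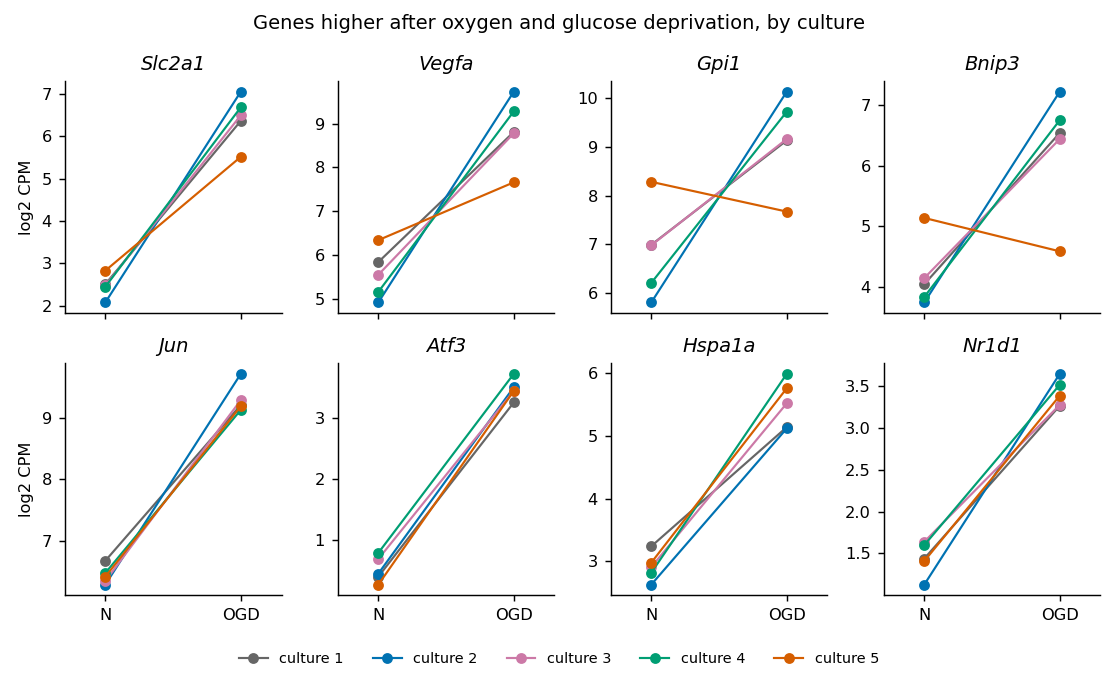
Log2 CPM (vertical axes) of 8 genes in the N and OGD library of each wild-type culture, joined by a line and coloured by culture. Gpi1 and Bnip3 were lower under deprivation in culture 5 (8.28 to 7.67 and 5.14 to 4.59), whereas Slc2a1, Vegfa, Jun, Atf3, Hspa1a and Nr1d1 were higher in every culture.

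The circadian clock genes changed as a group in which most members rose. Of 19 measured 14 rose and 2 fell (73.7% and 10.5%), with a median of 0.84; over cultures 2, 4 and 5 the counts were 11 and 1. Bhlhe40, a clock repressor that is also a HIF target, stood at 3.68, 3.21, 3.29, 2.8 and 3.92 in N_WT and 6.34, 7.12, 6.38, 6.72 and 5.81 in OGD_WT. Ciart, another repressor, went from 0.86, 0.3, 0.5, 0.62 and 1.25 to 3.46, 3.86, 3.84, 3.76 and 3.33. Nr1d1, which encodes REV-ERB alpha, rose by 1.97 ± 0.16. Per1 rose by 1.41 ± 0.29, with 4.36 to 4.7 in N_WT and 4.45 to 6.99 in OGD_WT, where replicate 5 did not leave the N_WT range. The members that fell were Npas2, an activator that can stand in for Clock (-1.47 ± 0.17), and the receptor Rorb (-0.5 ± 0.18), both named after their values were seen; Rorb was not called over cultures 2, 4 and 5.

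Genes of DNA replication and mitosis were higher. Of 38 measured 28 rose and 2 fell (73.7% and 5.26%), with a median of 0.84; over cultures 2, 4 and 5 the counts were 19 and 2. Mki67, a nuclear protein of cycling cells, stood at 8.3, 8.26, 8.01, 7.99 and 8.09 in N_WT and 9.68, 9.8, 9.25, 9.33 and 8.83 in OGD_WT. Aurka, a mitotic kinase, rose by 1.66 ± 0.17 and Ccnb1, the mitotic cyclin, by 1.49 ± 0.15. The 2 that fell were Ccne1 (-1.03 ± 0.18) and Ccne2 (-0.88 ± 0.19), the cyclins of the start of DNA replication, named after their values were seen. Neurons do not divide, and astrocytes and progenitors can. The markers of both moved the same way, as given above, and their part was not tested. Vim, an intermediate filament of glia and progenitors, was higher by 1.25 ± 0.25 but by 0.08 in culture 5, and Slc1a3, the glial glutamate transporter, by 1.08 ± 0.15.

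Messenger RNAs of cytosolic ribosomal proteins, a group taken by gene symbol after the files were read, were higher in 79 of 84 cases and lower in 1 (94.0% and 1.19%), with a median of 0.75. Over cultures 2, 4 and 5, 31 rose and 1 fell. Their summed level was 8200 to 9070 CPM in N_WT and 12200 to 16900 in OGD_WT, with no overlap. These short messengers share sequence with many processed copies in the genome, so single members are uncertain. Mitochondrial ribosomal proteins differed, with 6 of 78 higher and 12 lower (1 and 5 over cultures 2, 4 and 5) and a median of -0.06. Among nuclear noncoding RNAs Malat1 rose by 1.12 ± 0.2 and Neat1, the scaffold of paraspeckles, by 2.54 ± 0.22, from 3.17, 3.26, 3.57, 3.73 and 4.22 to 6.22, 6.11, 6.12, 6.84 and 5.36. Of 33 small nucleolar RNAs, which guide the modification of ribosomal RNA, 18 rose and none fell (median 0.61; 8 and 0 over cultures 2, 4 and 5). Of 32 splicing regulators 17 rose and 2 fell (median 0.4; 5 and 1). The splicing kinase Clk1 rose by 1.34 ± 0.15, and Cirbp, an RNA-binding protein known for its rise in the cold, fell by 1.01 on the log2 scale (SE 0.13).

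The lists on transmission and excitability held many falls. Of 16 GABA and glycine receptor genes 15 fell and none rose (93.8% lower), with a median of -0.76; over cultures 2, 4 and 5, 7 fell. Gabrb1, a beta subunit of the GABA-A receptor, stood at 6.91, 7.3, 7.44, 7.45 and 7.27 in N_WT and 5.53, 4.76, 5.24, 5.78 and 5.65 in OGD_WT, a difference of -1.88 ± 0.18 with no overlap. The glycine receptor subunit Glra2 fell by 1.39 on the log2 scale (SE 0.17). The member that was not called was Gabrd, the extrasynaptic delta subunit, with 5 to 21 reads in N_WT and 6 to 16 in OGD_WT.

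The excitatory side changed less evenly. Of 17 ionotropic glutamate receptor genes 2 rose and 6 fell (11.8% and 35.3%; median -0.23), and over cultures 2, 4 and 5, 1 rose and none fell. Grin1, the obligate NMDA receptor subunit, was at 7.23, 6.76, 7.5, 7.19 and 7.87 in N_WT and 6.55, 6.22, 6.44, 7.1 and 6.31 in OGD_WT, and the groups overlapped through N_WT replicate 2 and OGD_WT replicate 4. Grin2b fell by 0.7 on the log2 scale (SE 0.17) but, like Grin1, was not called over cultures 2, 4 and 5. The low-level Grin2c rose by 1.03 ± 0.22. The inhibitory metabotropic receptor Grm2 fell by 1.55 (SE 0.18). Among 33 genes of presynaptic release 19 fell and 2 rose (57.6% and 6.06%; median -0.57), and over cultures 2, 4 and 5, 10 fell and none rose. Slc17a7, the vesicular glutamate transporter VGLUT1, stood at 4.84, 4.7, 4.87, 5.05 and 5.18 in N_WT and 3.06, 2.51, 3.31, 3.49 and 3.84 in OGD_WT. The vesicle protein Sv2b (-1.6 ± 0.18), the calcium sensor Syt1 (-1.21 ± 0.19) and the fusion protein Stx1a (-1.07 ± 0.16) fell with it. The 2 that rose were Sv2c (0.75 ± 0.2) and Rims2 (0.48 ± 0.17), named after their values were seen, and neither was called over cultures 2, 4 and 5; Sv2c was lower by 0.33 in culture 5.

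The lists of ion channels and pumps held more falls than rises. Of 41 potassium channel genes 20 fell and 3 rose (48.8% and 7.32%; median -0.41; 10 and 0 over cultures 2, 4 and 5). Kcnq5, a channel of the M-current, stood at 6.92, 7.12, 7.31, 7.4 and 7.34 in N_WT and 5.45, 4.67, 5.33, 5.75 and 5.63 in OGD_WT. Kcnj3, a G protein-gated channel, fell by 1.61 (SE 0.21) and Kcnk3, a background channel, by 1.43 (SE 0.16) on the log2 scale. Of 22 sodium and calcium channel genes 9 fell and 3 rose (40.9% and 13.6%; 6 and 0 over cultures 2, 4 and 5), with Scn2b at -1.56 ± 0.22 and Scn2a, the main sodium channel of young axons, at -1.07 ± 0.17. Of 21 pumps and exchangers 10 fell and 1 rose (47.6% and 4.76%; median -0.38), but over cultures 2, 4 and 5, 2 fell and none rose, which is near the share of all genes. Atp2b2, a calcium pump of the plasma membrane, fell by 1.18 (SE 0.19) and Slc24a2, a sodium-calcium exchanger, by 1.43 (SE 0.18), while Slc12a5, which encodes the chloride extruder KCC2, fell by 0.75 (SE 0.16) but was not called over cultures 2, 4 and 5.

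Genes of neuronal identity moved in both directions. Of 20 transcription factors of cortical layers 10 fell and 5 rose (25.0%, near the share of all genes; median -0.51), and over cultures 2, 4 and 5, 7 fell and none rose. Tbr1, a factor of deep-layer neurons, stood at 6.46, 6.14, 6.49, 6.88 and 6.46 in N_WT and 5.44, 5.14, 5.44, 5.56 and 5.67 in OGD_WT. Bhlhe22 (-1.6 ± 0.21), Neurod6 (-1.15 ± 0.15) and Bcl11b (-0.92 ± 0.16) fell as well. Of 22 neurofilament and neuronal cytoskeleton genes 12 fell and none rose (54.5%; median -0.46), but 2 fell over cultures 2, 4 and 5, near the share of all genes, with Nefh, the heavy neurofilament, at -1.36 ± 0.17 and the microtubule protein Map1a at -1.19 ± 0.16. Of 19 interneuron genes 4 fell and 3 rose (21.1% and 15.8%, near the shares of all genes; 2 and 0 over cultures 2, 4 and 5), and the median of 0.22 became -0.05 on the total-read scale. Calb1, the calcium buffer calbindin, fell by 1.66 (SE 0.18). Of the neuron markers given above 5 of 12 fell, but 1 over cultures 2, 4 and 5, near the share of all genes. Their part was not tested.

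Among the 15 largest falls were receptors and signalling genes that few lists held. Rxfp1, the relaxin receptor, stood at 3.66, 3.94, 4.11, 4.13 and 4.37 in N_WT and 1.5, 0.71, 1.24, 1.99 and 0.7 in OGD_WT, the largest fall of the rule at -2.81 ± 0.22. Adcyap1, which encodes the neuropeptide PACAP, went from 2.82, 3.53, 3.62, 4.01 and 3.94 to 1.56, 0.44, 0.94, 1.63 and 0.03 (-2.66 ± 0.27). Mal2, a protein of membrane traffic, went from 5.03, 5.12, 5.26, 5.31 and 5.3 to 2.62, 2.25, 2.76, 3.35 and 2.95. Sema3e, a secreted guidance cue, fell by 2.3 (SE 0.18) and Hcrtr2, an orexin receptor, by 2.17 (SE 0.17). The others of the 15 were Lrrc55, Acvr1c, Hpcal4, Sprn, B4galt5, Ipcef1, Gda, Kcnv1, Has3 and Necab1, which fell by between 2.17 and 1.89 on the log2 scale. Each of the 15 was also called over cultures 2, 4 and 5. The rule asked for 1 direction in all 5 cultures and took the largest differences over libraries that include these. Calls of the smaller fit follow the size of the mean difference. Direction and call there were thus all but fixed in advance and lend no support. All 15 largest rises, picked by the same rule, were called over cultures 2, 4 and 5 too, with the same limit. Besides genes described above they held Cnn2, an actin-binding protein (3.01 ± 0.18), and Cmya5 (2.9 ± 0.16).

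**Figure D5:**
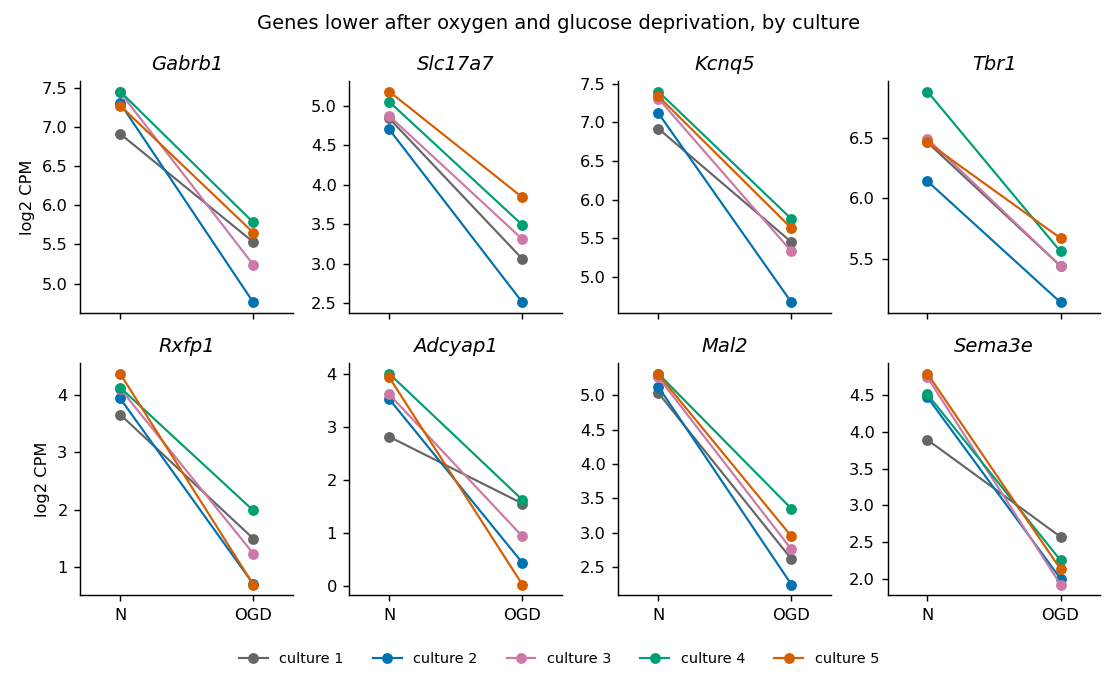
Log2 CPM (vertical axes) of 8 genes in the N and OGD library of each wild-type culture, joined by a line and coloured by culture. All 8 were lower under deprivation in every culture, and Rxfp1 ranged from 3.66 to 4.37 in N and from 0.7 to 1.99 in OGD.

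Further neuronal lists had smaller medians. Of 32 genes of postsynaptic scaffolds and adhesion 12 fell and 2 rose (37.5% and 6.25%; median -0.29; 2 and 0 over cultures 2, 4 and 5). Of 43 axon guidance genes 15 fell and 2 rose (34.9% and 4.65%; median -0.25; 5 and 0). For both lists the falls over cultures 2, 4 and 5 were near the share of all genes. Of 18 neuropeptide and secretory granule genes 8 fell and 1 rose (44.4% and 5.56%; median -0.36; 6 and 0), with culture 5 the lowest at a median of -1.03.

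Sterol and fatty acid synthesis, which needs oxygen at several steps, had 10 of 31 genes lower and 1 higher (32.3% and 3.23%; median -0.19; 3 and 1 over cultures 2, 4 and 5). The falls over cultures 2, 4 and 5 were near the share of all genes. Hsd17b7, an enzyme of cholesterol synthesis, stood at 5.24, 5.66, 5.54, 5.06 and 5.45 in N_WT and 3.83, 3.86, 3.94, 4.32 and 4.24 in OGD_WT. Elovl6, a fatty acid elongase, fell by 1.12 (SE 0.16). Fasn, the fatty acid synthase, fell by 0.88 (SE 0.2) but was not called over cultures 2, 4 and 5 and was higher by 0.1 in culture 5.

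The response was set against that of KO cultures, which lack the circular RNA of Cdr1as, by comparing the 5 within-culture differences of each genotype. Of 14097 genes 0 (0.0%) differed in limma at an adjusted p under 0.05, and 107 (0.759%) had an unadjusted p under 0.05. Without any difference about 5% would have an unadjusted p under 0.05. The test was thus conservative here, for reasons that were not tested, and the count of 0 carries little weight. With the batch label as a covariate 10 genes were called. The wild-type response minus that of the KO was 0.46 log2 units for Slc2a1, 0.31 for Vegfa, 0.14 for Jun, 0.12 for Atf3 and -0.1 for Gabrb1. Larger differences were those of Fosb (0.96), Acvr1c (-0.73), mt-Nd3 (-0.72), Ccn1 (0.66), Egln3 (0.65), Rxfp1 (-0.58) and the low-level Kdr (-0.51). These are examples picked by no set rule, and none was called without the batch covariate. The wild-type responses of Fosb, Acvr1c and Kdr were 3.88, -2.14 and 0.6. A missed threshold does not show that the genotypes respond alike.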

How the data were processed

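Total RNA from primary cortical neuron cultures was made into stranded libraries (SMARTer Stranded Total RNA kit, after TRIzol and DNase), per the labels' protocols, and the design text calls the replicates biological. The authors deposited log2 CPM per gene, with build mm10 per the submitters' processing notes; the aligner and the counter are not given in the sources used here. The deposited values turned out to be limited, per gene and group of 5, at the 10th and 90th percentile. This was undone exactly, since each extreme value keeps a weight of 0.6. Afterwards at least 99.92% of values in each library stood for whole reads (within 0.05 reads, values up to 500 reads), against 45.9% to 92.7% as deposited. Recovered depths are given in the text; intervals and floors were not used.

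The 5 OGD_WT and 5 N_WT libraries were compared with limma 3.58.1 (R 4.3.3; linear model, empirical Bayes with intensity trend, no covariate), and p-values were adjusted by Benjamini-Hochberg over all 14235 genes. Scripts were tested on simulated data. Responses of WT and KO were compared as 5 and 5 within-culture differences, because each table was normalized separately. Alternatives covered scaling, pseudocount, low-value filter, variance model, batch, replicate block and left-out replicates. Libraries of the same number share a culture name and batch in the labels; the correlation of their deviations from the group means was -0.26, 0.0, -0.73, 0.06 and -0.25 for numbers 1 to 5, against -0.24 to 0.23 for other pairs.

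Named genes were the 15 largest rises and 15 largest falls among called genes with a mean of at least 2 log2 CPM, no overlap and 1 direction in all 5 cultures, without predicted genes, clones and pseudogenes, and up to 6 members per list with the largest change; a few of these are not reported here. Lists and rules were chosen with earlier results of these data known. RefSeq promoters were matched by symbol, and 8834 of 9974 compared with GENCODE transcripts matched in the gene's direction and 0 in the opposite. Figures used matplotlib 3.10.9.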

Additional observations from a re-analysis of the deposited data

Results flagged for a closer look

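Of the 268 sets of 5 libraries examined for the named genes, 13 (4.9%) had a library standing far from the other 4 by Dixon's criterion. Chance gives about 5% if the 5 libraries are independent, which is in doubt here. None of the 13 was a library of replicate 1 or 3, and 5 were OGD_WT replicate 5. Replicates 1 and 3 seldom lay at either end of their group, so they could hardly be flagged.

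In OGD_WT replicate 5, Egln3 was at 3.59 log2 CPM (others 4.58 to 4.85), Kdm7a at 6.51 (others 7.4 to 7.71), Gys1 at 3.41 (others 5.73 to 6.54), Sv2c at 4.62 (others 5.64 to 5.85) and Vim at 7.49 (others 8.92 to 9.5). In N_WT replicate 5, Bnip3 was at 5.14 (others 3.75 to 4.15). In OGD_WT replicate 2, Foxo3 was at 8.09 (others 7.39 to 7.58) and Jun at 9.73 (others 9.14 to 9.3). In OGD_WT replicate 4, Glra2 was at 4.94 (others 3.95 to 4.21) and Asns at 7.71 (others 6.73 to 6.98). In N_WT replicate 4, Scn2a was at 8.81 (others 8.23 to 8.37) and Neurod6 at 7.35 (others 7.76 to 7.91). In N_WT replicate 2, mt-Nd3 was at 4.84 (others 4.15 to 4.24). That gene was called lower (-0.81 ± 0.22) but not over cultures 2, 4 and 5, and it was higher by 0.21 in culture 5.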

How the results depend on the processing

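The count of 6313 called genes was 1521 with the 2 cultures of batch 3.3, 2411 with cultures 2, 4 and 5, and 2303 with those cultures and the replicate block; these fits use fewer samples. It lay between 4313 (without replicate 3) and 6993 (without replicate 5) when a culture was left out, and between 5250 and 6635 when a single library was. The count of 1356 genes changed at least 2-fold was 2198 on the total-read scale, between 1248 and 1646 without a culture, and between 1209 and 1545 without a library. With the replicate block over all cultures the 2 counts were 5681 and 1345. Keeping the deposited values gave 8280 called genes. The WT against KO comparison gave 10 genes when the batch label entered as a covariate and 0 in every other alternative run; its leave-one-out counts ranged from 0 to 0. The mitochondrial ribosomal RNA difference of 9.3 points was 8.2 to 10.55 without a replicate, and 9.2 over cultures 2, 4 and 5, where p = 0.1 is the smallest that an exact permutation test allows. The cause of these shifts was not tested. Of 3584 values for 133 named genes under up to 27 alternatives, 3450 kept direction and side of the threshold, 125 lost the call, 5 gained it and 4 reversed. The reversals were mt-Rnr1, at -0.13 under quantile normalization, and Asns, which was not called (-0.06): it was at 0.21 in batch 3.3, at 0.03 without replicate 5 and 0.01 without OGD_WT replicate 5, and between -0.23 and 0.03 over all left-out replicates.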

Other observations

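Other gene groups are given beside the 21.6% of all genes called higher and 22.8% called lower. Of 56 replication-dependent histone genes 25 were called higher and 5 lower (44.6% and 8.93%; median log2 difference 0.36; 7 and 4 over cultures 2, 4 and 5). Of 23 collagen genes 9 rose and 5 fell (39.1% and 21.7%; median 0.34; 3 and 1 over cultures 2, 4 and 5), the falls being near the share of all genes. Of 56 clustered protocadherins, the adhesion proteins that give neurons their surface identity, 12 fell and 3 rose (21.4% and 5.36%; median -0.14; 5 and 0 over cultures 2, 4 and 5), the falls again near it. Of 6 mitochondrial transfer RNAs 4 rose and none fell (median 0.81; 1 and 0 over cultures 2, 4 and 5). These groups were taken by gene symbol after the files were read. Of 24 energy-stress and mTOR regulators 9 rose and 5 fell (37.5% and 20.8%), with a median of 0.34. Over cultures 2, 4 and 5 the counts were 3 and 2. The falls were near the share of all genes in both fits. Of 20 cytosolic aminoacyl-tRNA synthetases 6 rose and none fell (30.0%; 2 and 0 over cultures 2, 4 and 5), and the median of 0.09 became -0.19 on the total-read scale. Copies within the histone and protocadherin families share sequence, so single members are uncertain.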
